A study of Mus musculus with 12 samples.

Results

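The genes described here are 10 that mark mast cells and basophils in the mouse: Tpsb2, Prss34, Mcpt8, Mcpt1, Mcpt2, Cpa3, Fcer1a, Ms4a2, Hdc and Il4. They were taken by symbol from a table of raw counts that holds 39017 genes, of which 16024 had enough counts to be tested, and all 10 were among those tested. RNA was sequenced from bone marrow cells sorted as Lin- Sca1+ cKit+ (LSK), the compartment of haematopoietic stem cells and multipotent progenitors, from mice of mixed C57BL/6J; Sv/129 background. The 12 libraries form 4 labelled groups of 3. Libraries labelled NICD_TCFKO came from R26 N1IC lox/+ Tcf7 lox/lox Mx1Cre mice, NICD_TCFWT from R26 N1IC lox/+ Mx1Cre mice, NOTCHWT_TCFKO from Tcf7 lox/lox Mx1Cre mice, and NOTCHWT_TCFWT from wild-type mice. N1IC is the Notch1 intracellular domain, the active form of the receptor, placed at the R26 locus behind a lox-flanked stop. Mx1Cre is a recombinase that poly(I:C) induces, and it acts in many interferon-responsive cell types besides stem cells. All groups, the wild-type one included, received poly(I:C) at 2 ug per g of body weight. For both NICD groups the sort also required CD45.2 and eGFP, and the effect of that added gate cannot be told apart from that of N1IC. The labels give neither the age of the mice nor whether replicates are separate mice, so p-values measure the spread between these samples, which may be technical.

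Mast cells and basophils are granulocytes that bind IgE through the high-affinity receptor FcεRI and, when its bound antigen crosslinks it, release histamine, proteases and cytokines. In the mouse, mature mast cells store tryptases, chymases and carboxypeptidase A3 in their granules, with one set of chymases typical of connective tissue and another of mucosa, while basophils store Mcpt8 and Prss34. Both lineages descend from progenitors of the bone marrow that start to transcribe some of these genes before the mature cell forms, and GATA factors drive much of that transcription.

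Total counts ran from 30453271 to 43790674 per library. Levels are in CPM, counts relative to a library size scaled by TMM, and 3 counts in the shallowest library, taken below as the floor for a gene with no count in a group, are worth 0.0992 CPM. The labelled genotypes went against the data in part. Tcf7, the gene labelled as deleted, stood at 297, 896 and 615 CPM in libraries labelled NICD_TCFKO, at 5.05, 4.68 and 6.76 CPM in NICD_TCFWT, at 0.819, 2.76 and 0.267 CPM in NOTCHWT_TCFKO and at 14.3, 10.5 and 19.6 CPM in NOTCHWT_TCFWT. It was thus highest where the label says that it is deleted together with N1IC; the exons removed are not given in the sources used here. Notch1 averaged 774 ± 160 CPM in NICD_TCFKO, 180 ± 19.9 CPM in NICD_TCFWT, 149 ± 46.7 CPM in NOTCHWT_TCFKO and 571 ± 44.4 CPM in NOTCHWT_TCFWT (SD, n = 3 each), so the NICD_TCFWT libraries were below those labelled wild type. Group names below therefore stand for libraries so labelled and for no genotype, and every direction carries that limit. Of the genes behind the positive part of the sort, Kit, which also marks mast cells, lay between 610 and 978 CPM and Ly6a, which encodes Sca1, between 33.1 and 148 CPM over the 12 libraries; RNA levels do not show the surface gate, and genes of committed lineages, named below, were high in some libraries. Sex was not balanced. Xist was read in 3 of 3 NOTCHWT_TCFWT libraries with almost no Y-linked reads, whereas Y-linked genes were read in 1 of 3 NICD_TCFKO, 2 of 3 NICD_TCFWT and 2 of 3 NOTCHWT_TCFKO libraries. A fit with a term for Y-linked reads, chosen after seeing the data, is therefore given beside the results that it changes. One library stood apart, since NOTCHWT_TCFKO 1 held Xist at 2160 CPM beside 154 CPM of Y-linked genes whereas in each of the other 11 libraries one of these was at most 1.88 CPM. In bulk RNA, more cells of a type and more RNA per cell cannot be told apart.

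Start-site sequences show what the promoters of these genes share. Windows from 250 bases before to 50 after the transcription start were found in RefSeq (GRCm38.p6) for 8 of the 10 genes; Tpsb2 and Mcpt2 had none in the table. A GATA site, searched on both strands as AGATAA or AGATAG and likewise as TGATAA or as TGATAG, stood in the window of 7 of these 8 genes, against 29.8% of 32851 RefSeq promoters of the same length. The gene without such letters was Mcpt8. The 6 windows printed are those of every protease that had one and of both chains of the IgE receptor; they read 5′ to 3′ on the strand of the gene, and capitals mark the GATA sites.
Prss34, chr17:25298144-25298443, plus strand: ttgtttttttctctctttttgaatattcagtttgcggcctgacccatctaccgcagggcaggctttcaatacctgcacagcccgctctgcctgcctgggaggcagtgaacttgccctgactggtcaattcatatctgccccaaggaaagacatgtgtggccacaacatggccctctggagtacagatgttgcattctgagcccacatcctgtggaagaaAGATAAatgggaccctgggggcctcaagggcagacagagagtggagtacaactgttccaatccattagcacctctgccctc
Mcpt8, chr14:56085148-56085447, minus strand: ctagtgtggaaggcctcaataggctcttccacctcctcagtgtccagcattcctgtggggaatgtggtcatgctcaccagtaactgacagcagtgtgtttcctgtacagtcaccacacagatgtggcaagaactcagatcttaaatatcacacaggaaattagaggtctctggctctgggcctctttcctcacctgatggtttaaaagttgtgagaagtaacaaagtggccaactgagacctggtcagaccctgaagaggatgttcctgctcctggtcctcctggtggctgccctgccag
Mcpt1, chr14:56017714-56018013, plus strand: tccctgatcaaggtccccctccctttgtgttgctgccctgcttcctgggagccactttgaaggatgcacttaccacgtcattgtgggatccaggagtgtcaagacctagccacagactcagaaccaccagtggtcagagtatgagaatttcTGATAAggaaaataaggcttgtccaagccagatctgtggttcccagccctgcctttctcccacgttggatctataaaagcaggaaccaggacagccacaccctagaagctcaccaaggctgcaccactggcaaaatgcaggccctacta
Cpa3, chr3:20242132-20242431, minus strand: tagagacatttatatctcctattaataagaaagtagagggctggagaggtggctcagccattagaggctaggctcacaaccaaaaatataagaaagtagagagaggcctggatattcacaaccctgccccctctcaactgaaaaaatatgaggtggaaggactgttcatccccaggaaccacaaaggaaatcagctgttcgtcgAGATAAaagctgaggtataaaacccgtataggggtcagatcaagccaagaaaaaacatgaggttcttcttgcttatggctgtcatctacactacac
Fcer1a, chr1:173227180-173227479, minus strand: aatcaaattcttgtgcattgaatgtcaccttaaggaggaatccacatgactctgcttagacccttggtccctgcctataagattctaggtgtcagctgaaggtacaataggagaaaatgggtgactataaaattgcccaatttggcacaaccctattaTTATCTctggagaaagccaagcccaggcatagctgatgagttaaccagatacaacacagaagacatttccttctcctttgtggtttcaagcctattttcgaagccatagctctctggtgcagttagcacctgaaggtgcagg
Ms4a2, chr19:11623670-11623969, minus strand: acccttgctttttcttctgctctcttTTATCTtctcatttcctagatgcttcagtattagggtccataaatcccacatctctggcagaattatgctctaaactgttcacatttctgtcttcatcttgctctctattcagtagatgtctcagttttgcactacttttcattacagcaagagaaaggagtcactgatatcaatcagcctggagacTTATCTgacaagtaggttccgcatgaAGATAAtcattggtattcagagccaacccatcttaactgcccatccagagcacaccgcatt
The first base of the GATA site lay at -31 from the start site in Prss34, at -46 in Cpa3, at -92 in Fcer1a and at -99 in Mcpt1, and Ms4a2 held 3 of them, at -224, -37 and -11. Of the other motifs searched, an E-box (CANNTG) stood in 6 of the 8 genes against 72.3% of all promoters, the MITF-type E-box (CACATG or CACGTG, which overlaps it) in 3 of 8 against 20.4%, the CSL motif TGGGAA of Notch signalling in 1 of 8 against 25.6%, and the TCF motif ATCAAAG in 1 of 8 against 3.73%. These matches describe letters in a window and not bound sites.

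The 10 genes did not move as one block. Differences were tested in all 6 pairs of groups with edgeR's quasi-likelihood test, and a gene was called when its Benjamini-Hochberg adjusted p over the 16024 genes was under 0.05. In NICD_TCFKO against NOTCHWT_TCFWT, 1 gene was higher (Prss34) and 1 lower (Il4), where 4.01% of all genes tested were called higher and 2.3% lower. NICD_TCFKO against NOTCHWT_TCFKO gave 1 higher (Cpa3) and 1 lower (Tpsb2), beside 10.3% and 8.06% of all genes. With NICD_TCFKO against NICD_TCFWT the same 2 genes were called, Cpa3 higher and Tpsb2 lower, beside 7.25% and 5.15% of all genes. Between NICD_TCFWT and NOTCHWT_TCFKO, 1 gene was higher in NICD_TCFWT (Tpsb2) and 0 were lower, beside 1.54% and 1.34% of all genes. Prss34 and Ms4a2 were lower there without passing (edgeR unadjusted p = 0.0158 and 0.0267, adjusted p = 0.141 and 0.173). DESeq2 called 2 of the 10 in this pair, Tpsb2 included. Against NOTCHWT_TCFWT, NICD_TCFWT had 3 higher (Tpsb2, Prss34, Hdc) and 4 lower (Cpa3, Il4, Mcpt1, Mcpt2), beside 10.6% and 9.75% of all genes, with a median log2 fold change of -1.61 over the 10 and 0 over all genes. NOTCHWT_TCFKO against NOTCHWT_TCFWT also had 3 higher and 4 lower, beside 10.8% and 10.5% of all genes, with a median log2 fold change of -0.64 over the 10. These last 2 comparisons share the 3 NOTCHWT_TCFWT libraries, so their likeness is not a separate finding. Fcer1a, Ms4a2 and Mcpt8 were called in no pair.

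**Figure D1:**
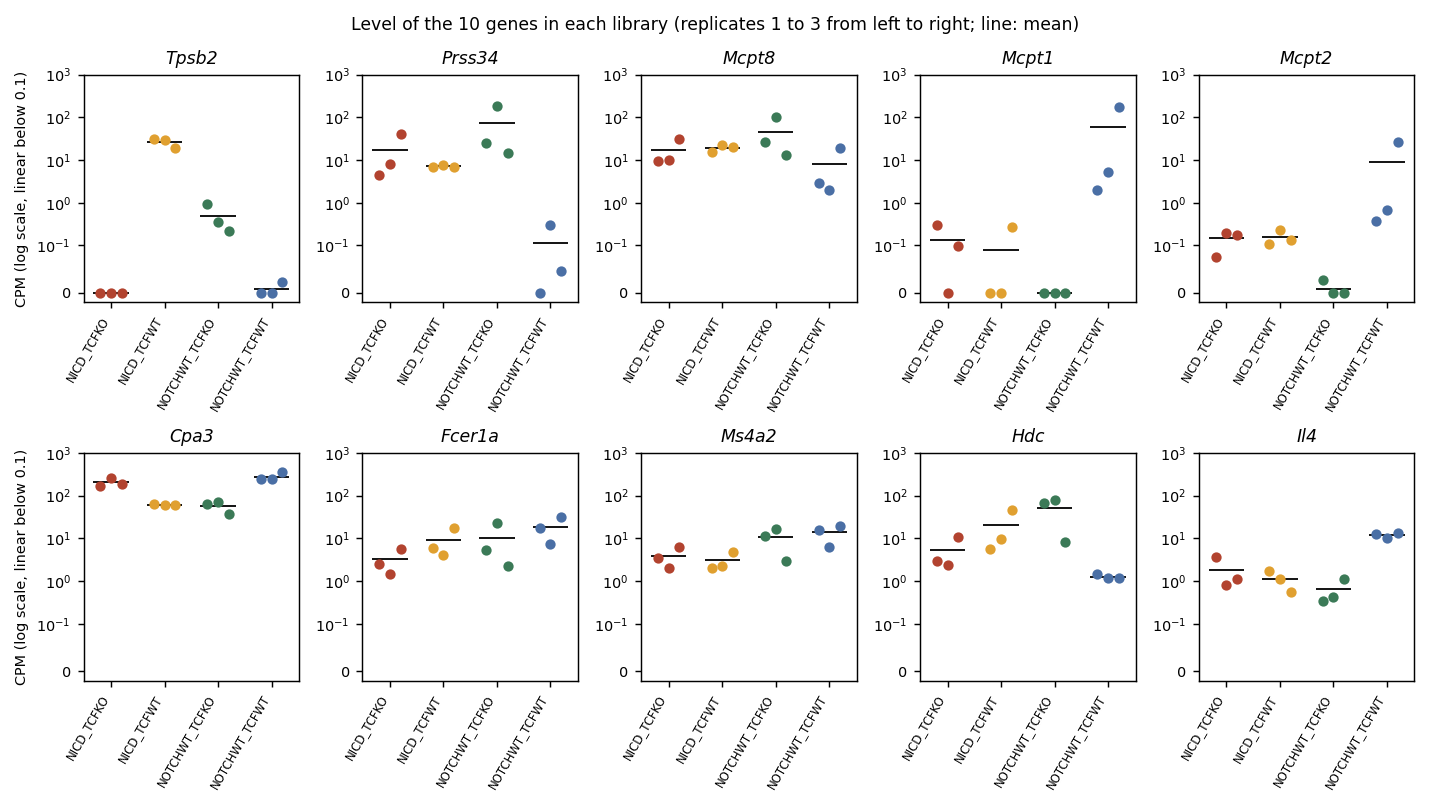
Level of each of the 10 genes in CPM (vertical axis, log scale that is linear below 0.1) in the 12 libraries; points are libraries, replicates 1 to 3 from left to right within a labelled group, and the line is the mean. Tpsb2 separates NICD_TCFWT, at 18.6 to 30.5 CPM, from all other libraries, and Mcpt1 and Mcpt2 are high in 1 library, NOTCHWT_TCFWT 3.

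**Figure D2:**
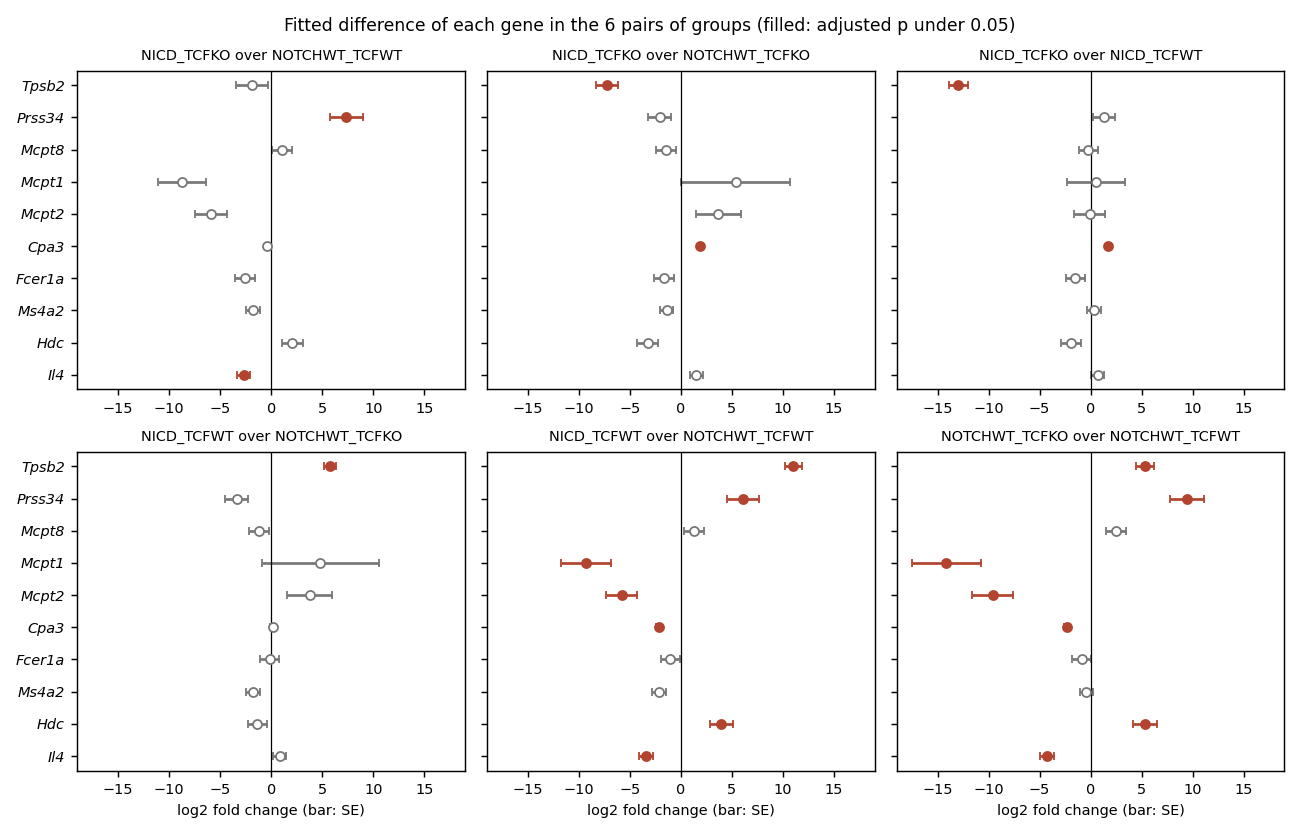
Fitted log2 fold change of each gene in the 6 pairs of groups (horizontal axis; the first-named group over the second; bars are the SE; filled points have an adjusted p under 0.05). Where a group has no count, as Tpsb2 in NICD_TCFKO and Mcpt1 in NOTCHWT_TCFKO, the fitted value depends on the prior count; Cpa3 has the shortest bars and is called in 4 of the 6 pairs.

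Tpsb2 (chr17:25366305-25369098, plus strand, mm10) encodes a tryptase, a trypsin-like protease that connective tissue mast cells store as a tetramer. It was read at 0 counts in all 3 NICD_TCFKO libraries, at 30.5, 28.9 and 18.6 CPM in NICD_TCFWT, at 0.925, 0.345 and 0.218 CPM in NOTCHWT_TCFKO, and at 0, 0 and 0.0233 CPM in NOTCHWT_TCFWT. The groups do not overlap except for NICD_TCFKO and NOTCHWT_TCFWT, where 1 count was read in 6 libraries. Tpsb2 was at least 262-fold lower in NICD_TCFKO than in NICD_TCFWT when the group with no count is set at the floor in each library (edgeR adjusted p = 0.000166), and at least 5-fold lower than in NOTCHWT_TCFKO (edgeR adjusted p = 0.0032). NICD_TCFWT exceeded NOTCHWT_TCFKO by 5.71 ± 0.59 on the log2 scale (SE; edgeR adjusted p = 0.00146). Against the single count of NOTCHWT_TCFWT the ratio was 2807 for NICD_TCFWT (exact 95% interval 503 to 110895, counting error only; edgeR adjusted p = 9.71e-05) and 52.6 for NOTCHWT_TCFKO (9.07 to 2114; edgeR adjusted p = 0.00418). All calls of Tpsb2 held with each library left out in turn and under each alternative that tested it. Without NOTCHWT_TCFKO 1, the library with both Xist and Y-linked reads, the log2 value of NICD_TCFWT against NOTCHWT_TCFKO became 6.51, that of NICD_TCFKO became -6.45, and that of NOTCHWT_TCFKO against NOTCHWT_TCFWT became 4.53. Without NOTCHWT_TCFWT 3, the library with the single count, the fitted log2 values against NOTCHWT_TCFWT were 12.94 in NICD_TCFWT and 7.24 in NOTCHWT_TCFKO.

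Tpsab1 and Tpsg1, neighbours of Tpsb2 in the tryptase locus, were read mostly in the NICD_TCFWT libraries and at far lower levels than Tpsb2. Tpsab1, a second soluble tryptase, had 56 counts over the 3 NICD_TCFWT libraries, 1 count in NOTCHWT_TCFKO and none in the other groups. Tpsg1, a membrane-anchored tryptase, averaged 0.32 ± 0.108 CPM in NICD_TCFWT and 0.0854 ± 0.0541 CPM in NOTCHWT_TCFKO, with no count in NICD_TCFKO or NOTCHWT_TCFWT. Both were too low to be tested. Prss28, which was tested, was read in every library of the 3 other groups, NICD_TCFKO included (3, 3 and 15 counts), but not in NOTCHWT_TCFWT. It did not pass in any pair, and its smallest adjusted p was 0.0617 (edgeR), at 0.182 ± 0.193 CPM in NOTCHWT_TCFKO and 0 counts in NOTCHWT_TCFWT. Of the 7 genes listed for this locus 3 were tested, and Tpsb2 and Prss34 were those called.

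By correlation of log2 CPM over the 12 libraries, which share their groups, the gene most like Tpsb2 was Mrgprb2 (Pearson r = 0.986), a receptor of mouse connective tissue mast cells for basic peptides and drugs. Mrgprb2 stood at 2.52, 3.29 and 1.92 CPM in NICD_TCFWT, at 0.106, 0.0531 and 0.0727 CPM in NOTCHWT_TCFKO, at 0 counts in NICD_TCFKO, and at 1 count in all of NOTCHWT_TCFWT. It was at least 26-fold lower in NICD_TCFKO than in NICD_TCFWT (edgeR adjusted p = 0.00029). Acot11 (r = 0.939) and Trnau1ap (r = 0.934) came next, at much smaller ratios between groups. A list of 10 mast cell markers was read in full, 10 of 10 genes, in each NICD_TCFWT library, against 5 of 10 in each NICD_TCFKO library, 7 to 9 in NOTCHWT_TCFKO and 5 to 8 in NOTCHWT_TCFWT. A gene counted as read at 1 count or more. The list holds Tpsb2, Cpa3 and Ms4a2, and Tpsb2 is among its genes at 0 in NICD_TCFKO, so this count in part repeats the Tpsb2 result. Tpsab1, Mrgprb1 and Mrgprb2 were at 0 in every NICD_TCFKO library. Tpsab1 and Mrgprb1 were also at 0 in every NOTCHWT_TCFWT library, and Mrgprb1 in every NOTCHWT_TCFKO library. The summed level of the 6 listed markers other than Kit and the 10 genes was nonetheless highest in NOTCHWT_TCFWT, at 301 to 337 CPM, against 70.7 to 174 CPM in NICD_TCFKO, 168 to 222 CPM in NICD_TCFWT and 135 to 162 CPM in NOTCHWT_TCFKO, and most of it was Slc18a2, the vesicular monoamine transporter.

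Prss34 (chr17:25298394-25300165, plus strand) lies in the same locus and encodes a serine protease stored by mouse basophils. Its levels were 4.4, 8.21 and 40.1 CPM in NICD_TCFKO, 7, 7.48 and 7.01 CPM in NICD_TCFWT, 24.5, 187 and 14.8 CPM in NOTCHWT_TCFKO, and 0, 0.298 and 0.0467 CPM in NOTCHWT_TCFWT. Every library of the other 3 groups lay above every NOTCHWT_TCFWT library, which had 11 counts in all, while NICD_TCFKO overlapped both other groups and NICD_TCFWT lay below all of NOTCHWT_TCFKO without passing the test (edgeR adjusted p = 0.141). Relative to NOTCHWT_TCFWT it was higher by 7.35 ± 1.6 in NICD_TCFKO, by 6.06 ± 1.57 in NICD_TCFWT and by 9.45 ± 1.67 in NOTCHWT_TCFKO (log2 ± SE; edgeR adjusted p = 0.0291, 0.0258 and 0.00426). The call in NICD_TCFKO was lost without any one of 7 libraries (NICD_TCFKO 2 and 3, NICD_TCFWT 1 and 2, and each NOTCHWT_TCFWT library; edgeR adjusted p up to 0.119), at log2 5.87 without NICD_TCFKO 3 and 9.26 without NOTCHWT_TCFWT 2. That in NICD_TCFWT was lost without any one of 6, the NICD_TCFWT and NOTCHWT_TCFWT libraries (0.0505 to 0.0978), at log2 7.97 without NOTCHWT_TCFWT 2. For NOTCHWT_TCFKO the call held without each library, with log2 values of 7.50 without NOTCHWT_TCFKO 2 and 11.38 without NOTCHWT_TCFWT 2. None of the 3 calls held in limma-voom (adjusted p 0.198 to 0.417), and those in NICD_TCFKO and NICD_TCFWT were also lost with no filter on low counts (edgeR adjusted p = 0.055 and 0.0507). Fitting only the groups compared lost the NICD_TCFKO call as well (edgeR adjusted p = 0.0653). With the term for Y-linked reads all 3 held, and the log2 values were 7.72, 7.76 and 10.13.

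Mcpt8 (chr14:56082166-56085273, minus strand) is the protease by which mouse basophils are usually recognised. It was read at 9.48, 9.97 and 31.0 CPM in NICD_TCFKO, at 15.6, 22.4 and 20.6 CPM in NICD_TCFWT, at 26.0, 99.5 and 13.4 CPM in NOTCHWT_TCFKO, and at 2.94, 1.98 and 19.5 CPM in NOTCHWT_TCFWT. All 4 groups overlap, because NOTCHWT_TCFWT 3 was 9.84 times above the lowest library of its group. The widest difference, 2.5 ± 1.01 on the log2 scale between NOTCHWT_TCFKO and NOTCHWT_TCFWT, did not pass (edgeR adjusted p = 0.114). Within groups, Prss34 and Mcpt8 shared their highest library in NICD_TCFKO (replicate 3), NICD_TCFWT (replicate 2) and NOTCHWT_TCFKO (replicate 2). In NICD_TCFWT the highest library was only 1.07 times above the lowest for Prss34 and 1.43 times for Mcpt8. The share of all genes with these peaks is not given here. The same NOTCHWT_TCFKO 2 library held the largest summed level of 9 eosinophil markers, 432 CPM. Their sums were 35.6 to 50.4 CPM in NICD_TCFKO, 9.36 to 43 CPM in NICD_TCFWT, 41.1 and 100.4 CPM in the other NOTCHWT_TCFKO libraries and 43.6 to 57.4 CPM in NOTCHWT_TCFWT. In NOTCHWT_TCFWT most of that sum was Siglecf, at 56.1, 42 and 49.3 CPM, and Epx, Ear1, Ear2 and Ear6 had no count. NOTCHWT_TCFKO 2 was also the highest of the 12 libraries in summed granulocyte and monocyte (7883 CPM), erythroid (372 CPM) and macrophage markers (436 CPM). The part of any of these lists in the Prss34 and Mcpt8 levels was not tested. The 3 basophil markers outside the 10 genes (Cd200r3, Il3ra and Itga2) summed to 15.2 to 37.3 CPM in NICD_TCFKO, 29.7 to 39.1 CPM in NICD_TCFWT, 28.4 to 35.3 CPM in NOTCHWT_TCFKO and 32.7 to 37.6 CPM in NOTCHWT_TCFWT, with overlapping ranges. Ctsh, a lysosomal cysteine protease, was most like Prss34 over the 12 libraries (r = 0.967). For Mcpt8 the closest genes were Hs3st3b1 (r = 0.942), which sulfates heparan chains, and Alox5 (r = 0.934), the enzyme that starts leukotriene synthesis.

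Mcpt1 (chr14:56017971-56020384, plus strand) and Mcpt2 (chr14:56042041-56044642, plus strand) encode chymase-family proteases of mucosal mast cells. Mcpt1 stood at 0.3, 0 and 0.0996 CPM in NICD_TCFKO, at 0, 0 and 0.271 CPM in NICD_TCFWT, at 0 counts in all of NOTCHWT_TCFKO, and at 1.99, 5.16 and 170 CPM in NOTCHWT_TCFWT. For Mcpt2 the values were 0.075, 0.194 and 0.174 CPM in NICD_TCFKO, 0.109, 0.231 and 0.135 CPM in NICD_TCFWT, 0.0264, 0 and 0 CPM in NOTCHWT_TCFKO, and 0.375, 0.661 and 26.3 CPM in NOTCHWT_TCFWT. Both genes were higher in every NOTCHWT_TCFWT library than in any other library, and both rest on NOTCHWT_TCFWT 3, which lay 85.5 times above the lowest library of its group for Mcpt1 and 70.2 times for Mcpt2. By group means, Mcpt1 was at least 596-fold lower in NOTCHWT_TCFKO than in NOTCHWT_TCFWT (edgeR adjusted p = 0.0262). That bound rests on NOTCHWT_TCFWT 3 and does not hold for replicates 1 and 2, at 1.99 and 5.16 CPM against the floor of 0.0992 CPM. Against NOTCHWT_TCFWT the log2 fold change of Mcpt1 was -9.32 ± 2.44 in NICD_TCFWT (edgeR adjusted p = 0.0364). In NICD_TCFKO it was -8.77 ± 2.34 and did not pass (edgeR adjusted p = 0.0775). The NICD_TCFWT call was lost without any one of 7 libraries, the NICD_TCFKO and NICD_TCFWT ones and NOTCHWT_TCFWT 3. Its log2 value was -5.27 (edgeR adjusted p = 0.0704) without NOTCHWT_TCFWT 3 and -14.16 (edgeR adjusted p = 0.113) without NICD_TCFWT 3. The NOTCHWT_TCFKO call was lost without NICD_TCFWT 3 or any one NOTCHWT_TCFKO library (edgeR adjusted p 0.0503 to 0.0628), and its fitted log2 value, -14.14 with all libraries, was -10.08 without NOTCHWT_TCFWT 3. Mcpt2 had a log2 fold change of -5.82 ± 1.54 in NICD_TCFWT against NOTCHWT_TCFWT (edgeR adjusted p = 0.0254), but of -1.69 without NOTCHWT_TCFWT 3 (edgeR adjusted p = 0.142), and the call was also lost without NOTCHWT_TCFKO 1 or any one NICD_TCFWT library (0.0507 to 0.0964). Of 8 other settings this call was lost in 6, a term for library sheets inferred from sample numbers in the titles (edgeR adjusted p = 0.0716), limma-voom (0.226) and the term for Y-linked reads (0.134) among them. Mcpt2 had 1 count in NOTCHWT_TCFKO, and its NOTCHWT_TCFWT over NOTCHWT_TCFKO ratio was 1257 (exact 95% interval 225 to 49676, counting error only; edgeR adjusted p = 0.0086); that call held without each library, at log2 -5.45 without NOTCHWT_TCFWT 3 and -11.43 without NOTCHWT_TCFKO 1, but was lost in limma-voom (adjusted p = 0.126) and when only the groups compared were fitted (edgeR adjusted p = 0.081). Both calls of Mcpt1 were lost in limma-voom (adjusted p = 0.305 in NICD_TCFWT and 0.24 in NOTCHWT_TCFKO). They were also lost with no filter on low counts, when only the groups compared were fitted, and with the term for Y-linked reads (edgeR adjusted p = 0.129 and 0.0923).

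The rest of the chymase and granzyme locus on chromosome 14 split into 3 patterns. Cma1 and Mcpt4, the chymases of mouse connective tissue mast cells, followed Tpsb2 in part: Cma1 was read at 0, 0 and 0.0996 CPM in NICD_TCFKO, 41.8, 23.0 and 16.1 CPM in NICD_TCFWT, 1.03, 0.212 and 0.194 CPM in NOTCHWT_TCFKO and 0, 0.0331 and 5.34 CPM in NOTCHWT_TCFWT. Mcpt4 had 27.4, 16.4 and 8.36 CPM in NICD_TCFWT and 25.0 CPM in NOTCHWT_TCFWT 3, and at most 1.12 CPM in any other library. In NICD_TCFKO against NICD_TCFWT, both were lower (log2 fold change -9.54 ± 2.25 for Cma1 and -7.67 ± 1.8 for Mcpt4; edgeR adjusted p = 0.0257 and 0.0246). The granzymes Gzmb and Gzmc, serine proteases best known from killer cells, had their highest group mean in NOTCHWT_TCFWT, as Mcpt1 did, but were also read in NICD_TCFKO. Unlike Mcpt1 they did not rest on NOTCHWT_TCFWT 3. The libraries of that group held 1102, 600 and 1324 CPM of Gzmb and 1.04, 1.49 and 1.24 CPM of Gzmc. Gzmb averaged 195 ± 74.4 CPM in NICD_TCFKO, 3.95 ± 0.32 CPM in NICD_TCFWT, 1.86 ± 1.13 CPM in NOTCHWT_TCFKO and 1009 ± 371 CPM in NOTCHWT_TCFWT (SD, n = 3 each). Its log2 fold change was -9.09 ± 0.61 in NOTCHWT_TCFKO against NOTCHWT_TCFWT (edgeR adjusted p = 1.6e-05), and Gzmc was at least 12.6-fold lower there (edgeR adjusted p = 0.000975). Ctsg, cathepsin G of myeloid granules, went the other way and averaged 44.7 ± 12.6 CPM in NICD_TCFKO, 222 ± 134 CPM in NICD_TCFWT, 345 ± 239 CPM in NOTCHWT_TCFKO and 12.1 ± 5.26 CPM in NOTCHWT_TCFWT. Of the 8 genes of this list tested, 1 was called higher and 5 lower in NOTCHWT_TCFKO against NOTCHWT_TCFWT, beside 10.8% and 10.5% of all genes. In NICD_TCFWT against NOTCHWT_TCFWT 1 was higher and 4 lower, beside 10.6% and 9.75% of all genes. Both counts of lower genes include Mcpt1 and Mcpt2, and the first also includes Mcpt4. Each of these genes was far higher in NOTCHWT_TCFWT 3 than in the other libraries of that group.

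**Figure D3:**
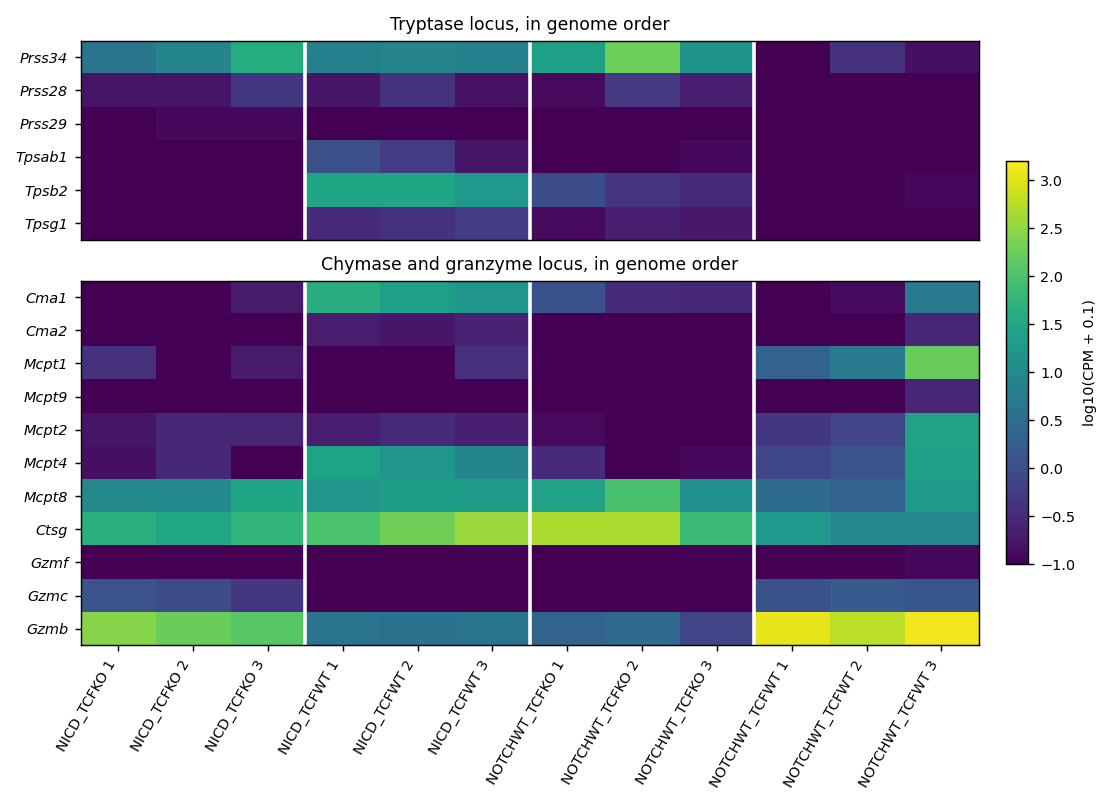
Level of each gene with a count in the tryptase locus (top) and the chymase and granzyme locus (bottom), rows in genome order and columns the 12 libraries by labelled group; colour is log10(CPM + 0.1). Tpsb2, Cma1 and Mcpt4 are bright in the 3 NICD_TCFWT libraries, and Mcpt1, Mcpt2 and Mcpt4 in NOTCHWT_TCFWT 3, where Mcpt1 reaches 170 CPM.

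Cpa3 (chr3:20215620-20242181, minus strand) encodes carboxypeptidase A3, a granule exopeptidase that mast cells and basophils begin to transcribe as progenitors. Its levels were 172, 263 and 184 CPM in NICD_TCFKO, 63.0, 61.8 and 59.9 CPM in NICD_TCFWT, 62.1, 69.4 and 36.4 CPM in NOTCHWT_TCFKO, and 240, 238 and 350 CPM in NOTCHWT_TCFWT. The values form an upper and a lower level: NICD_TCFKO and NOTCHWT_TCFWT overlap at the top, NICD_TCFWT and NOTCHWT_TCFKO overlap at the bottom, and no library of the upper pair of groups overlapped the lower pair. Cpa3 was higher in NICD_TCFKO by 1.75 ± 0.25 than in NICD_TCFWT and by 1.88 ± 0.25 than in NOTCHWT_TCFKO (log2 ± SE; edgeR adjusted p = 0.00236 and 0.00101). Relative to NOTCHWT_TCFWT its log2 fold change was -2.17 ± 0.26 in NICD_TCFWT and -2.30 ± 0.26 in NOTCHWT_TCFKO (edgeR adjusted p = 0.000415 and 0.00024). All 4 calls held without each library and under each alternative, and none of these values moved by more than 1.5 times. The difference of -0.42 ± 0.25 between NICD_TCFKO and NOTCHWT_TCFWT did not pass (edgeR adjusted p = 0.363).

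Per kilobase of exon, the scale on which genes can be set against each other, Cpa3 was the most abundant of the 10 genes in 3 groups, at 136 ± 32.7 CPM per kb in NICD_TCFKO, 40.6 ± 1.04 CPM per kb in NICD_TCFWT and 182 ± 42.5 CPM per kb in NOTCHWT_TCFWT. In NOTCHWT_TCFKO it averaged 36.9 ± 11.4 CPM per kb, below Prss34 at 61.7 ± 79.1 and Mcpt8 at 46.4 ± 46.6 CPM per kb, whose means rest on NOTCHWT_TCFKO 2. Genes most like Cpa3 over the 12 libraries were Il31ra (r = 0.983), a cytokine receptor subunit, Setdb1 (r = 0.979), a histone methyltransferase, and Gzmb (r = 0.977). Il31ra averaged 59.5 CPM in NICD_TCFKO, 9.64 CPM in NICD_TCFWT, 8.9 CPM in NOTCHWT_TCFKO and 64.4 CPM in NOTCHWT_TCFWT. The order of these 4 means is that of Cpa3.

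Fcer1a (chr1:173221284-173227214, minus strand) and Ms4a2 (chr19:11615523-11623719, minus strand) encode the IgE-binding α chain and the signal-amplifying β chain of FcεRI. Fcer1a was read at 2.48, 1.48 and 5.63 CPM in NICD_TCFKO, at 5.97, 4.11 and 17.2 CPM in NICD_TCFWT, at 5.21, 23.1 and 2.3 CPM in NOTCHWT_TCFKO, and at 17.0, 7.4 and 32.0 CPM in NOTCHWT_TCFWT. Ms4a2 stood at 3.45, 2.03 and 6.3 CPM in NICD_TCFKO, at 2.06, 2.24 and 4.9 CPM in NICD_TCFWT, at 11.5, 16.8 and 3.01 CPM in NOTCHWT_TCFKO, and at 15.4, 6.15 and 19.8 CPM in NOTCHWT_TCFWT. Libraries within a group differed as much as the groups did, by 3.81 to 10 times for Fcer1a and 2.37 to 5.6 times for Ms4a2. Fcer1a in NICD_TCFKO and Ms4a2 in NICD_TCFWT lay below NOTCHWT_TCFWT without overlap, and every other pair overlapped. Neither of these differences passed (log2 -2.56 ± 0.97 and -2.17 ± 0.69; edgeR adjusted p = 0.163 and 0.0504). The share of all genes without overlap in these pairs is not given here. In Ms4a2, 1.22% of 75-base stretches also occur in Ms4a4b, and no other gene among the 10 shared any.

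What Fcer1a and Ms4a2 had in common was the library in which they peaked: replicate 3 of NICD_TCFKO, 3 of NICD_TCFWT, 2 of NOTCHWT_TCFKO and 3 of NOTCHWT_TCFWT. These 4 libraries all held Xist and at most 0.0233 CPM of Y-linked genes. Sample numbers recur in the titles, and from them 3 of the 12 libraries were assigned here to a second library sheet. All 3 are among these 4. The labels name no sheet and call all samples batch 1, so the sheet is an inference. The part of sex and of the inferred sheet in this pattern was not tested. Of the 9 other members 1, Ms4a2, shared it. Of all 16024 genes tested, 554 (3.46%) had their highest library in these same 4 places. Among 14 tested growth factor and surface receptors 3 did, the β subunits Csf2rb and Csf2rb2 shared by receptors for IL-3, IL-5 and GM-CSF and the IL-33 receptor Il1rl1, and so did 2 of 13 lineage factors, Gata1 and Irf8. So did Alox5 and Ndst2 among 13 genes of mediator synthesis and granule matrix, Il6 among 6 tested cytokines, Elane among 8 granulocyte and monocyte markers, Prg2 among 9 eosinophil markers and Cd3d among 8 tested T and innate lymphoid markers. All 4 erythroid markers reported here (Klf1, Hba-a1, Hbb-bs and Epor) had this pattern as well, with sums of 7.34 to 49 CPM in NICD_TCFKO, 12.9 to 35.5 CPM in NICD_TCFWT, 26.9 to 372 CPM in NOTCHWT_TCFKO and 5.69 to 109 CPM in NOTCHWT_TCFWT; their part in the level of the IgE receptor chains was not tested. The pattern was noticed after the values were seen and is a description of these libraries. Over the 12 libraries the 2 chains correlated at r = 0.792.

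**Figure D4:**
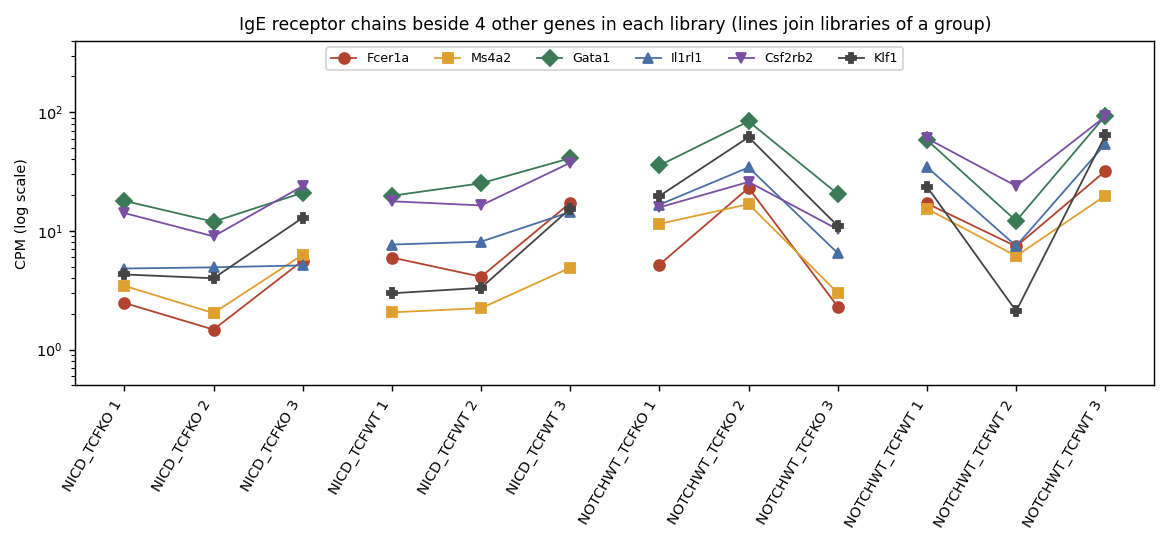
Level in CPM (vertical axis, log scale) of Fcer1a, Ms4a2, Gata1, Il1rl1, Csf2rb2 and the erythroid factor Klf1 in the 12 libraries (horizontal axis); lines join replicates of a labelled group and imply no order. All 6 genes peak in replicate 3 of NICD_TCFKO, NICD_TCFWT and NOTCHWT_TCFWT and in replicate 2 of NOTCHWT_TCFKO.

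Genes of the signalling chain below FcεRI were called in both directions. Among 17 genes listed for it, both chains included and all tested, 7 were higher and 1 lower in NICD_TCFKO against NOTCHWT_TCFKO, with a median log2 fold change of 0.11 over the list, and 5 higher and 1 lower against NICD_TCFWT, with a median of 0.36, where 10.3% of all genes were called higher and 8.06% lower in the first comparison and 7.25% and 5.15% in the second. Against NOTCHWT_TCFWT, 1 was higher and 4 lower in NICD_TCFWT (median -0.14), and 1 was higher and 4 lower in NOTCHWT_TCFKO (median -0.20), beside 10.6% and 9.75% of all genes in the first comparison and 10.8% and 10.5% in the second; in each of these comparisons the median of all genes was within 0.01 of 0. Fyn, a Src-family kinase, averaged 147 ± 7.21 CPM in NICD_TCFKO, 86.1 ± 9.99 CPM in NICD_TCFWT, 66.9 ± 13 CPM in NOTCHWT_TCFKO and 188 ± 20.5 CPM in NOTCHWT_TCFWT (SD, n = 3 each). The adaptor Lcp2 had a log2 fold change of -0.96 ± 0.09 and the phospholipase Plcg1 one of -1.34 ± 0.21 in NOTCHWT_TCFKO against NOTCHWT_TCFWT (edgeR adjusted p = 7.11e-05 and 0.00165), all 3 of them genes that T cell receptors use too. The γ chain Fcer1g, which other Fc receptors share, went the other way there, at 42 ± 18 CPM in NOTCHWT_TCFKO and 12.7 ± 3.96 CPM in NOTCHWT_TCFWT (log2 1.73 ± 0.32; edgeR adjusted p = 0.00401).

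Hdc (chr2:126593667-126619299, minus strand) encodes histidine decarboxylase, the enzyme that makes histamine, in mast cells, basophils and a subset of myeloid progenitors. Levels of Hdc were 2.9, 2.35 and 10.7 CPM in NICD_TCFKO, 5.54, 9.59 and 44.7 CPM in NICD_TCFWT, 66.4, 79.1 and 8.39 CPM in NOTCHWT_TCFKO, and 1.44, 1.19 and 1.19 CPM in NOTCHWT_TCFWT. No NOTCHWT_TCFWT library overlapped any other, while the other 3 groups overlapped each other and spread by 4.57 to 9.43 times within themselves. Hdc was higher by 5.33 ± 1.17 in NOTCHWT_TCFKO and by 3.97 ± 1.11 in NICD_TCFWT than in NOTCHWT_TCFWT (log2 ± SE; edgeR adjusted p = 0.0115 and 0.0333), and the difference in NICD_TCFKO, 2.06 ± 1.05, did not pass (adjusted p = 0.297). The call in NICD_TCFWT was lost without NICD_TCFWT 3 (log2 2.55, edgeR adjusted p = 0.111) and without any one NOTCHWT_TCFWT library (0.0947 to 0.107); that in NOTCHWT_TCFKO held without each library but not in limma-voom (adjusted p = 0.106). The NICD_TCFWT call was also lost in limma-voom (adjusted p = 0.269), with the replicate block (edgeR adjusted p = 0.0753) and with no filter on low counts (edgeR adjusted p = 0.0644). With the term for Y-linked reads both calls held, at log2 6.35 in NOTCHWT_TCFKO and 4.60 in NICD_TCFWT.

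The genes most like Hdc were Ms4a3 (r = 0.991), a marker of granulocyte and monocyte progenitors, and Anxa3 (r = 0.988), an annexin of neutrophils. Ms4a3 averaged 12 CPM in NICD_TCFKO, 37.9 CPM in NICD_TCFWT, 123 CPM in NOTCHWT_TCFKO and 2.23 CPM in NOTCHWT_TCFWT. The sum of 8 granulocyte and monocyte markers, of which 6 to 8 had a count in a library, was 366 to 1090 CPM in NICD_TCFKO, 1467 to 6032 CPM in NICD_TCFWT, 1323 to 7883 CPM in NOTCHWT_TCFKO and 74.6 to 136 CPM in NOTCHWT_TCFWT. This sum and Hdc were both lowest in NOTCHWT_TCFWT and both highest in NICD_TCFWT 3, NOTCHWT_TCFKO 1 and NOTCHWT_TCFKO 2; its part in the Hdc level was not tested. Among 13 genes of mediator synthesis and granule matrix, Hdc included, 3 were higher and 2 lower in NICD_TCFWT against NOTCHWT_TCFWT (median 0.60), and likewise 3 and 2 in NOTCHWT_TCFKO (median 0.49), beside 10.6% higher and 9.75% lower of all genes in the first comparison and 10.8% and 10.5% in the second. Alox5ap, which presents arachidonic acid to 5-lipoxygenase, was higher by 0.60 ± 0.09 and the prostaglandin D synthase Hpgds lower, at -1.48 ± 0.20, in NICD_TCFWT against NOTCHWT_TCFWT (log2 ± SE; edgeR adjusted p = 0.00138 and 0.00068). Cd63, a tetraspanin of granule membranes, was lower in NICD_TCFKO than in NOTCHWT_TCFKO (18.1 ± 10.5 against 46.9 ± 4.67 CPM; log2 -1.37 ± 0.33, edgeR adjusted p = 0.0174). Slc18a2, which loads histamine and serotonin into granules, was lower than in NOTCHWT_TCFWT in all 3 other groups, at log2 -1.21 ± 0.31 in NICD_TCFKO, -1.10 ± 0.31 in NICD_TCFWT and -1.04 ± 0.31 in NOTCHWT_TCFKO (edgeR adjusted p = 0.0478, 0.0319 and 0.0385).

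Il4 (chr11:53602982-53618669, minus strand) encodes interleukin-4, which basophils, mast cells and T helper cells release in type 2 responses. It was read at 3.6, 0.799 and 1.12 CPM in NICD_TCFKO, at 1.71, 1.13 and 0.541 CPM in NICD_TCFWT, at 0.343, 0.425 and 1.14 CPM in NOTCHWT_TCFKO, and at 12.8, 10.3 and 13.1 CPM in NOTCHWT_TCFWT. The 3 NOTCHWT_TCFWT libraries lay above all 9 others, and the other 3 groups overlapped. Relative to NOTCHWT_TCFWT the log2 fold change of Il4 was -2.71 ± 0.64 in NICD_TCFKO, -3.42 ± 0.66 in NICD_TCFWT and -4.24 ± 0.69 in NOTCHWT_TCFKO (edgeR adjusted p = 0.033, 0.00534 and 0.00201). The last 2 calls held without each library and under each alternative; the first was lost without any one of 6 libraries (adjusted p 0.0527 to 0.114), and its log2 value was -3.64 without NICD_TCFKO 1, where it held. Those 6 were NICD_TCFKO 2 and 3, NICD_TCFWT 2 and each NOTCHWT_TCFWT library; in NOTCHWT_TCFKO the value was -4.93 without NOTCHWT_TCFKO 3. With the term for Y-linked reads all 3 calls held and the values were -3.46, -4.49 and -5.23, and when only the groups compared were fitted the first was lost (edgeR adjusted p = 0.0581). T helper cells also make Il4, and 9 markers of T and innate lymphoid cells summed to 124 to 392 CPM in NICD_TCFKO, 43.2 to 58.3 CPM in NICD_TCFWT, 43.3 to 52.8 CPM in NOTCHWT_TCFKO and 19.6 to 26.4 CPM in NOTCHWT_TCFWT. The single markers did not all follow the sum: Gata3 averaged 51.2 CPM in NICD_TCFKO, 11.4 CPM in NICD_TCFWT, 10.4 CPM in NOTCHWT_TCFKO and 14.9 CPM in NOTCHWT_TCFWT, Cd3g had no count in NICD_TCFWT, and Cd3e was at 0 in NICD_TCFWT 2 and 3 and in NOTCHWT_TCFKO 1 and at 0.0288 to 0.163 CPM in NOTCHWT_TCFWT. Their part in the Il4 level was not tested.

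Of 11 cytokines listed with Il4, 6 had enough counts to be tested, and Il3 and Il9 had none at all. Ccl3, an inflammatory chemokine, was higher in NICD_TCFWT than in NOTCHWT_TCFWT, at 41.1 ± 12.5 against 1.79 ± 0.156 CPM (log2 4.52 ± 0.46; edgeR adjusted p = 0.00018), and Ccl4 was higher by 1.60 ± 0.41 (adjusted p = 0.0193), a call lost with the term for Y-linked reads (edgeR adjusted p = 0.0736). Tnf did not pass in any pair, with its smallest adjusted p, 0.429, for NOTCHWT_TCFKO against NOTCHWT_TCFWT. Il4 was thus the 1 tested cytokine of the list called lower in that comparison, beside 2 called higher, where 10.5% of all genes were lower and 10.8% higher. Gpatch2 (r = 0.977), Dpysl3 (r = 0.972) and Apol10b (r = 0.965) were most like Il4 over the 12 libraries.

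Receptors and transcription factors of these lineages were called in both directions. Among 14 tested receptors, 4 were higher (Crlf2, Csf2ra, Il18r1, Mrgprb2) and 1 lower (Itgb7) in NOTCHWT_TCFKO against NOTCHWT_TCFWT, beside 10.8% and 10.5% of all genes, and 0 and 3 (Crlf2, Il18r1, Mrgprb2) in NICD_TCFKO against NOTCHWT_TCFKO, beside 10.3% and 8.06%. The IL-18 receptor gene Il18r1 averaged 3.38 ± 1.41 CPM in NICD_TCFKO and 12.4 ± 3.15 CPM in NOTCHWT_TCFKO (log2 -1.88 ± 0.44; edgeR adjusted p = 0.0155), and Crlf2, of the TSLP receptor, had a log2 fold change of -1.10 ± 0.26 (adjusted p = 0.0176). Mitf, a factor that mast cells need, was lower in NICD_TCFKO, with a log2 fold change of -1.29 ± 0.24 against NOTCHWT_TCFKO and of -1.11 ± 0.24 against NICD_TCFWT (edgeR adjusted p = 0.00465 and 0.0131). Gata2, required for both lineages, averaged 126 ± 65.5 CPM in NICD_TCFKO, 227 ± 9.27 CPM in NICD_TCFWT, 188 ± 15 CPM in NOTCHWT_TCFKO and 343 ± 14.9 CPM in NOTCHWT_TCFWT, and was called in NICD_TCFKO against NOTCHWT_TCFWT (log2 -1.44 ± 0.31; edgeR adjusted p = 0.0247). Cebpa, which commits progenitors to granulocytes and basophils, averaged 3.55 ± 2.63 CPM in NICD_TCFKO, 50.8 ± 28.3 CPM in NICD_TCFWT, 61.1 ± 23.4 CPM in NOTCHWT_TCFKO and 0.0636 ± 0.0736 CPM in NOTCHWT_TCFWT. It was higher by 9.81 ± 0.96 in NOTCHWT_TCFKO than in NOTCHWT_TCFWT (edgeR adjusted p = 0.000153). Runx1 was lower in NICD_TCFWT than in NOTCHWT_TCFWT, at log2 -0.64 ± 0.12 (edgeR adjusted p = 0.00386).

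**Figure D5:**
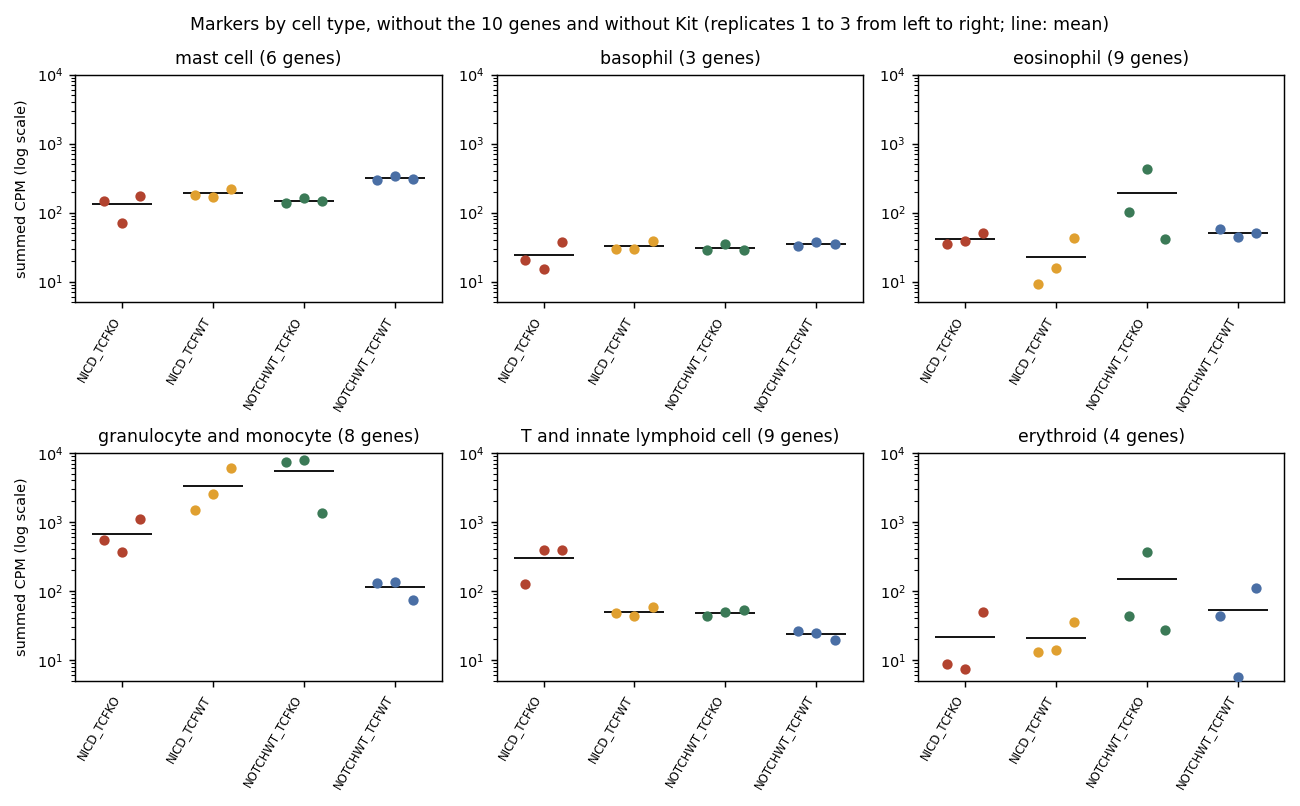
Summed CPM (vertical axis, log scale) of 6 marker lists in the 12 libraries, without Kit and without any of the 10 genes; points are libraries, replicates 1 to 3 from left to right, and the line is the group mean. Granulocyte and monocyte markers are lowest in NOTCHWT_TCFWT, T and innate lymphoid markers highest in NICD_TCFKO, and eosinophil and erythroid markers peak in NOTCHWT_TCFKO 2.

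Whether the difference that goes with the N1IC label was the same under both Tcf7 labels was tested as an interaction, the log2 fold change of NICD_TCFKO over NOTCHWT_TCFKO minus that of NICD_TCFWT over NOTCHWT_TCFWT. It was called positive for 3 of the 10 genes (Cpa3, Il4, Mcpt2), beside 13.8% of all genes tested, and negative for 3 (Tpsb2, Prss34, Hdc), beside 13.5%. For Cpa3 it was 4.05 ± 0.36 (log2 ± SE; edgeR adjusted p = 3.84e-05): the N1IC label went with a higher level among libraries labelled Tcf7-deleted and with a lower one among the others. For Il4 the interaction was 4.94 ± 0.91 (edgeR adjusted p = 0.00279). That of Mcpt2 was lost without any one of 4 libraries and in 3 other settings, and those of Prss34 and Hdc in limma-voom. Mcpt1, Mcpt8, Fcer1a and Ms4a2 did not pass (edgeR adjusted p = 0.0708, 0.18, 0.77 and 0.595).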

How the data were processed

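Gene expression was measured by single-end RNA sequencing of 75 nt in 12 samples, all labelled batch 1. The authors deposited raw counts per Ensembl gene; a second deposited table holds log2 CPM values, which match counts raised by 0.5 before scaling. The submitters' processing notes name featureCounts 1.4.4, HISAT2, limma, edgeR 3.28.0, cutadapt 1.9.1 and bcl2fastq 2.17 without roles, and the build mm10; strand setting is not given in the sources used here. Symbols, positions and exon lengths came from GENCODE M21 (mm10). No annotated exon of another gene overlaps an exon of the 10 genes.

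Here, counts were filtered by filterByExpr, scaled by TMM and fitted over all 12 libraries, 1 mean per group, with edgeR 4.0.16 (R 4.3.3; quasi-likelihood F test, two-sided, robust); SE is the log2 fold change over the square root of F. limma 3.58.1 (voom, and a fit of the deposited log2 values), DESeq2 1.42.0, RLE scaling, other filters, the replicate block, a term for library sheets inferred from sample numbers that recur in the titles, a term for Y-linked reads above 10 CPM (summed over Ddx3y, Uty, Eif2s3y and Kdm5d), only the groups compared, and each library left out in turn served as alternatives, scipy 1.17.1 for exact binomial intervals, which cover counting error only. The fit was tested on simulated data. Replicates with the same number deviated together in NICD_TCFKO and NICD_TCFWT (r = 0.314, 0.1001 and 0.451 over genes), where the block changed no call of the 10 genes. In NICD_TCFWT and NOTCHWT_TCFWT r was lower but also positive throughout (0.0138, 0.124 and 0.207), and there the block lost the calls of Mcpt2 and Hdc. Every other pair had a negative r for some replicate number.

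The 10 genes and all lists were chosen with earlier results of these data known. Named are the 10 genes; per list, up to 3 others with the smallest adjusted p; per gene, up to 3 with the highest r; and Tcf7, Notch1, Kit and Ly6a. Tpsab1, Tpsg1, Cma1, Mcpt4, Mrgprb1, Slc18a2, Fcer1g, Gata1, Irf8, Gata2, Il1rl1, Csf2rb, Csf2rb2, Cd3e, Cd3g, Gata3, Siglecf, Epx, Ear1, Ear2, Ear6 and the erythroid markers were named after their values were seen, as were the other genes listed beside counts. Of the planned erythroid markers, 1 is not reported here and is in no sum.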

Additional observations from a re-analysis of the deposited data

Results flagged for a closer look

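For 6 of the 10 genes the difference between libraries with and without the N1IC label differed between the Tcf7 labels by the test of the difference itself (NICD_TCFKO over NOTCHWT_TCFKO, minus NICD_TCFWT over NOTCHWT_TCFWT, log2, edgeR). Such calls were common in this series: of all genes tested, 13.8% were called positive and 13.5% negative. Tpsb2 had -18.28 (adjusted p = 2.93e-05), a fitted value that depends on the prior count because NICD_TCFKO had no count. The interaction was -8.15 for Prss34 (edgeR adjusted p = 0.0129) and -7.23 for Hdc (edgeR adjusted p = 0.00732). It was 9.49 for Mcpt2 (edgeR adjusted p = 0.0208), 4.05 for Cpa3 (edgeR adjusted p = 3.84e-05) and 4.94 for Il4 (edgeR adjusted p = 0.00279). Without NOTCHWT_TCFKO 2 the value of Prss34 was -6.19, and without NICD_TCFWT 3 that of Hdc was -5.83, both still called, but neither was called in limma-voom (adjusted p = 0.226 for Prss34 and 0.0668 for Hdc). The Mcpt2 value was 5.35 without NOTCHWT_TCFWT 3. It was no longer called without NICD_TCFKO 2 or any one NOTCHWT_TCFKO library (edgeR adjusted p 0.0535 to 0.0557), in limma-voom (adjusted p = 0.233), under a term for library sheets inferred from the titles (edgeR adjusted p = 0.073) or with a term for Y-linked reads (edgeR adjusted p = 0.121). With that term, chosen after seeing the data, Prss34 had -10.16, Hdc -8.43 and Il4 6.27, all still called. Tcf7 and Notch1 went against the labels in part, so the labels of this contrast carry that limit.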

How the results depend on the processing

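Each call of the 10 genes, the interaction included, was recomputed under the alternatives, which gave 578 log2 values. Of these, 503 kept their direction and their side of the threshold, 75 kept their direction but missed it and 0 reversed. All calls of Tpsb2 and Cpa3 were among the 503. Differences that were not called are not in these counts, so Fcer1a, Ms4a2 and Mcpt8 have no value there. In the order used in the report (NICD_TCFKO against NOTCHWT_TCFWT, against NOTCHWT_TCFKO and against NICD_TCFWT; NICD_TCFWT against NOTCHWT_TCFKO and against NOTCHWT_TCFWT; NOTCHWT_TCFKO against NOTCHWT_TCFWT; interaction), 2, 2, 2, 1, 7, 7 and 6 genes were called. With each library left out in turn these counts ranged 0 to 2, 2 to 4, 2 to 2, 1 to 2, 3 to 8, 6 to 8 and 5 to 8. Without a filter on low counts the first was 1 and the fifth 4. In limma-voom the first was 1, the fifth 3, the sixth 3 and the interaction 3. Fitting only the groups compared gave 0, 1 and 4 for the first, second and sixth, and DESeq2 gave 2 for the fourth. A term for libraries with Y-linked reads above 10 CPM, chosen after seeing the data, gave 4 for the second, adding Hdc and Il4, and lost both calls of Mcpt1 and those of Mcpt2 in NICD_TCFWT against NOTCHWT_TCFWT and in the interaction. The replicate block gave 2, 2, 2, 1, 5, 7 and 7: it lost Mcpt2 (edgeR adjusted p = 0.093) and Hdc (0.0753) in NICD_TCFWT against NOTCHWT_TCFWT. Over all genes the calls in NICD_TCFWT against NOTCHWT_TCFKO numbered 460, but 291 with the block, 1655 in DESeq2, 802 with the term for Y-linked reads and 161 to 2065 with a library left out; NICD_TCFKO against NOTCHWT_TCFWT gave 1010, with 538 for only these groups, 2025 in DESeq2 and 368 to 1285 with a library left out. NICD_TCFKO against NOTCHWT_TCFKO gave 2942, with 1238 for only these groups and 1610 to 3302 with a library left out, and NICD_TCFKO against NICD_TCFWT 1986, with 3186 in DESeq2 and 917 to 2688 with a library left out. Leaving out a library gave 2024 to 3644 (3263 with all) in NICD_TCFWT and 2201 to 3847 (3413 with all) in NOTCHWT_TCFKO against NOTCHWT_TCFWT. The causes were not tested. RLE size factors lost no call of the 10 genes. A gene with no count in the shallowest library could lie at up to 0.0992 CPM there.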
